A study of Homo sapiens with 6 samples.

Results

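The genes described here encode the aminoacyl-tRNA synthetases of the cytosol and of the mitochondrion. The 35 members were taken by name, 19 cytosolic and 16 mitochondrial, out of 58299 genes in the deposited count table. All 35 were found by gene symbol, and all 35 passed the filter on low counts with which 15575 genes were tested. The CDDO_DOX group is 3 libraries of AC16 cells given 100 nM CDDO-Me for 24 h and then 100 nM doxorubicin for 48 h. The Control group is 3 libraries of AC16 cells kept in 0.1% DMSO for 72 h. AC16 is a human line made by fusing adult ventricular heart cells with transformed fibroblasts, so both groups are 1 cell line. CDDO-Me (bardoxolone methyl) is a triterpenoid that releases the transcription factor NRF2 from KEAP1, and doxorubicin is a cancer drug that stalls topoisomerase II on DNA and is toxic to the heart. Cells given a single drug were not analysed here, so no difference below can be assigned to either drug.

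A synthetase joins an amino acid to its tRNA and so sets which amino acid each codon receives. Cytosolic protein synthesis and mitochondrial protein synthesis mostly use separate enzymes from separate nuclear genes, and the mitochondrial enzymes serve only the few proteins encoded by mitochondrial DNA. The GARS1 and KARS1 genes each give a cytosolic and a mitochondrial form, EPRS1 charges glutamate and proline in one chain, and FARSA and FARSB are the subunits of one phenylalanine enzyme. The 7 cytosolic members that sit in the multisynthetase complex are EPRS1, IARS1, LARS1, MARS1, QARS1, KARS1 and RARS1. Uncharged tRNA activates the kinase GCN2, which leads to translation of the transcription factor ATF4, and several cytosolic synthetase genes are known ATF4 targets in mammalian cells.

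The libraries held 17150259 to 20193957 counts in genes. More genes had at least 1 count in CDDO_DOX libraries (28021 to 28482) than in Control libraries (21816 to 22205), and the part of this difference in the results was not tested. Levels are given as CPM, the counts of a gene per 1e+06 counts of its library, after TMM normalisation, a scaling that sets a typical gene to no change, and they are shares of the RNA sequenced. In bulk RNA, fewer cells of a type and less RNA per cell cannot be told apart. Of 14 cardiomyocyte markers, 11 averaged below 1 CPM, among them TNNT2, MYH6 and MYH7, and TNNI3 had 0 counts. The 10 fibroblast markers were all present, with a summed level of 13165 to 13994 CPM in CDDO_DOX libraries and 24522 to 27015 CPM in Control libraries. The summed cardiomyocyte markers, mostly GJA1, held 128 to 145 CPM in CDDO_DOX and 300.1 to 332 CPM in Control. GJA1 averaged 106 CPM in CDDO_DOX and 285 CPM in Control. Of the cardiomyocyte markers, TTN and MEF2C were called higher, and GJA1, GATA4 and NPPB lower. Whether these marker differences bear on the synthetases was not tested. The labels do not say that replicates were separate cultures, so every p-value here is set against a spread that may be only technical.

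Of 19 cytosolic members, 8 were higher in CDDO_DOX, 7 were lower and 4 were not called. Of 16 mitochondrial members, 1 was higher, 10 were lower and 5 were not called. A call is an adjusted p below 0.05 (Benjamini-Hochberg, over all tested genes) in the quasi-likelihood test of edgeR, and on that rule 63.5% of all tested genes were called, 32.3% higher and 31.2% lower. The median log2 change, CDDO_DOX over Control, was 0.05 for the cytosolic members and -0.20 for the mitochondrial members, beside 0.02 for all tested genes. Few changes were large: 6 of the 35 members were called and changed at least 1.5-fold, where 29.6% of all tested genes did. Of these 6, SARS1, AARS1 and CARS1 are cytosolic and rose, and WARS2, SARS2 and FARS2 are mitochondrial and fell. The median size of the log2 change was 0.22 over the 35 members and 0.37 over all tested genes. Scaling by library totals (total counts only) left 11 cytosolic members higher and 3 lower, and 2 mitochondrial members higher and 6 lower, with the median of all genes at 0.15.

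**Figure D1:**
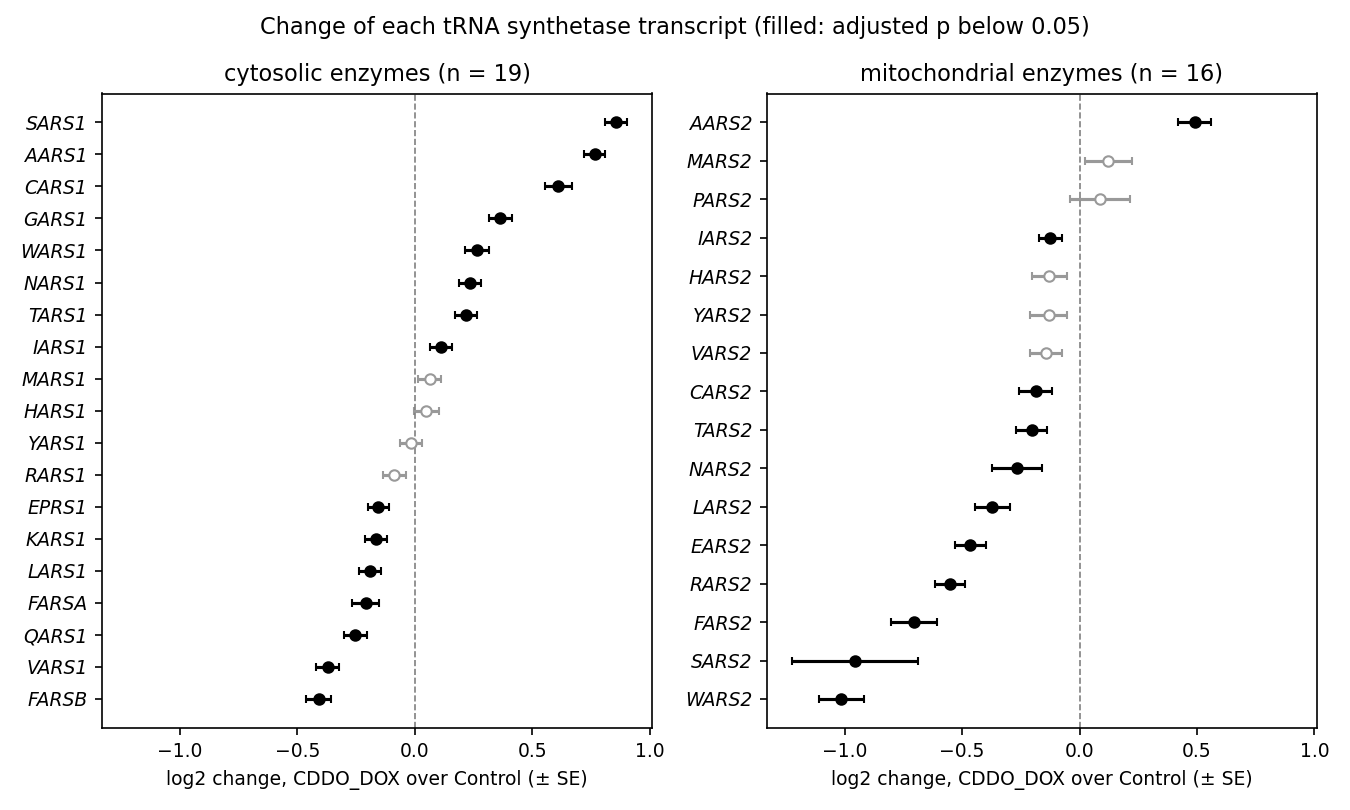
Log2 change (CDDO_DOX over Control, x axis) with its standard error for the 19 cytosolic enzymes on the left and the 16 mitochondrial enzymes on the right, each sorted by size; filled points have an edgeR adjusted p below 0.05. The cytosolic points spread from -0.41 (FARSB) to 0.86 (SARS1), and the mitochondrial points run from -1.01 (WARS2) to 0.49 (AARS2).

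SARS1 and AARS1 had the largest increases, followed by CARS1. SARS1, the cytosolic serine enzyme, which also charges the selenocysteine tRNA with serine, is ENSG00000031698 on GRCh38 chromosome 1, 109213918 to 109238169. Its level was 441, 445 and 425 CPM in CDDO_DOX libraries, against 246, 235 and 242 CPM in Control libraries. The lowest CDDO_DOX library lay far above the highest Control library. The log2 change was 0.86 (SE 0.046, edgeR adjusted p = 3.56e-25), above that of 86.8% of tested genes. AARS1, the cytosolic alanine enzyme (ENSG00000090861, chromosome 16, 70252295 to 70289543), had 787, 757 and 759 CPM in CDDO_DOX libraries, against 449, 456 and 449 CPM in Control libraries. Libraries of each group were close together and the groups did not overlap. Its log2 change was 0.77 (SE 0.045, edgeR adjusted p = 1.44e-23), above 85.0% of tested genes. CARS1, the cysteine enzyme, had 115, 102 and 106 CPM in CDDO_DOX, against 73.2, 72.9 and 65.5 CPM in Control, a log2 change of 0.61 (SE 0.058, edgeR adjusted p = 1.66e-14). A small part of CARS1, 2.04% of its exon bases, lies in exons of another gene, and neither SARS1 nor AARS1 shares any.

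**Figure D2:**
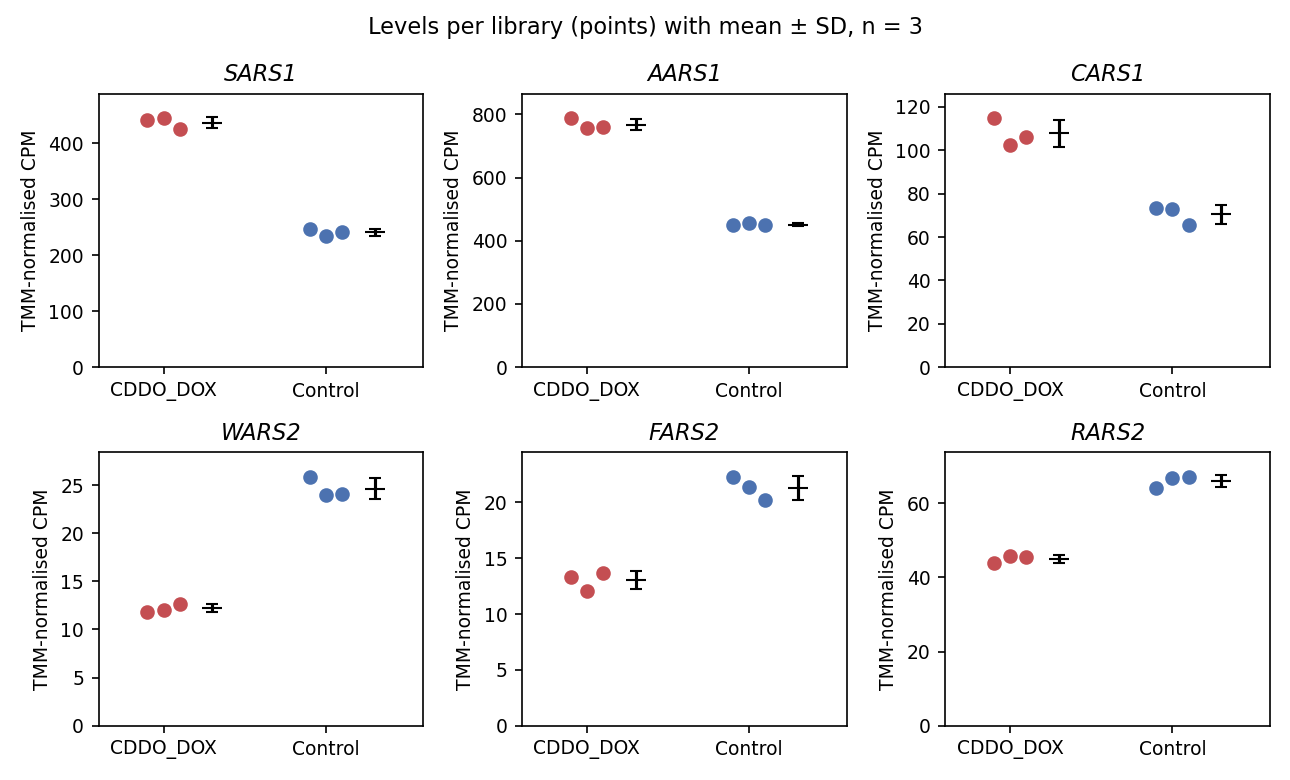
TMM-normalised CPM (y axis, from 0) of 6 members in each library, CDDO_DOX on the left and Control on the right of each panel; the bars are the mean ± SD of n = 3. SARS1, AARS1 and CARS1 are higher in every CDDO_DOX library than in any Control library, and WARS2, FARS2 and RARS2 are lower in every CDDO_DOX library than in any Control library.

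The DNA upstream of SARS1 and AARS1, which rose most, and of WARS2 and FARS2, which fell most apart from SARS2, whose level is uncertain (given with its values), is shown from RefSeq (GRCh38.p14), cut to the longest stretch of the 250 bases before the RefSeq start that holds no annotated exon of the deposited table. Each is on the gene's own strand, and capitals mark a match to 1 of the 5 motifs searched.

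SARS1, chr1:109213643-109213892, + strand: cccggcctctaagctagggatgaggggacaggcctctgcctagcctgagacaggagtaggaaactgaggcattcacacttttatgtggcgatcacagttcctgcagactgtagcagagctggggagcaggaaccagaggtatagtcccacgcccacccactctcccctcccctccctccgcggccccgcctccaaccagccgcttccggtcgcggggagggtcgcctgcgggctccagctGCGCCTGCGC
AARS1, chr16:70289544-70289662, - strand: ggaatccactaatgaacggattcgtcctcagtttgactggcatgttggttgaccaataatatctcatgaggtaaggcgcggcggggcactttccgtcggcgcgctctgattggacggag
WARS2, chr1:119140794-119140922, - strand: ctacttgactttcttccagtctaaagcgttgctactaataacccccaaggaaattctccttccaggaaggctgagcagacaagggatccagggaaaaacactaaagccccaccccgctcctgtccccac
FARS2, chr6:5260940-5261006, + strand: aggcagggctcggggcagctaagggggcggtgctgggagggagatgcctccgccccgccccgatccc

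The capitals in SARS1 are a match to the motif of the transcription factor NRF1, a regulator of nuclear genes for mitochondria. Promoter entries were found for 30 members, and there were none for LARS1, VARS1, YARS1, AARS2 and VARS2. Both strands of the 250 bases were searched. The amino acid response element, the motif bound by ATF4 with its C/EBP partners, was searched as TGATGNAA. It was matched in 2 of 16 cytosolic and 1 of 14 mitochondrial promoters, and in 3.19% of 27305 promoters of all genes. The 3 matches are shown with their neighbouring bases, the motif in capitals, since 1 of them lies upstream of AARS1, which rose.

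AARS1, chr16:70289675-70289704, - strand: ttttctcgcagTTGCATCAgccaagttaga
IARS1, chr9:92293698-92293721, - strand: ttttcagcgcgTTGCATCAcctcc
YARS2, chr12:32756076-32756105, - strand: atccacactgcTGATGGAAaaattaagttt

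The AARS1 and IARS1 matches read TTGCATCA on the gene's strand, the reverse complement of the motif, and begin 187 and 13 bases before the start. The AARS1 match lies beyond the start of DDX19B, a gene on the opposite strand that starts 120 bases from AARS1. DDX19B was not called (log2 change -0.15, edgeR adjusted p = 0.0792). IARS1 had a log2 change of 0.11, and YARS2, at -0.13, was not called. SARS1 and CARS1 hold no such letters in this window. The other motifs were CACGTG (the E-box of MYC and its relatives), matched in 1 cytosolic and 2 mitochondrial promoters and 6.49% of all promoters, and the NRF1 motif, GCGC, any base and then TGCGC, matched in 2 cytosolic and 2 mitochondrial promoters and 5.53% of all promoters. CCGGAAGT (the ETS factors) was matched in 4 cytosolic and 3 mitochondrial promoters and 3.64% of all promoters. TGACNNNGC, the core of the antioxidant response element that NRF2 binds, was matched in 3 cytosolic promoters (KARS1, TARS1 and WARS1) and 2 mitochondrial promoters (NARS2 and RARS2), and in 11.0% of all promoters. HARS1 and HARS2 share their promoter region, so their ETS matches are the same bases, and the MARS2 NRF1 match at 27 bases reads as the motif on both strands.

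Among the cytosolic enzymes outside the multisynthetase complex, 7 of 12 were higher and 3 lower, where 32.3% and 31.2% of all tested genes were. Their median log2 change was 0.23. Besides SARS1, AARS1 and CARS1, the members that rose were the glycine, tryptophan, asparagine and threonine enzymes. GARS1, which supplies the cytosol and the mitochondrion, had 383, 360 and 362 CPM in CDDO_DOX, against 293, 269 and 296 CPM in Control (log2 change 0.37, SE 0.047, edgeR adjusted p = 7.45e-10). WARS1, the tryptophan enzyme and a known interferon gamma target, had 163, 163 and 159 CPM in CDDO_DOX, against 137, 135 and 131 CPM in Control (log2 change 0.26, edgeR adjusted p = 4.68e-06). The level of WARS1 was 20.2% higher, and all 3 CDDO_DOX libraries were above all Control libraries. NARS1 averaged 359 ± 4.23 CPM in CDDO_DOX and 305 ± 7.54 CPM in Control, and its log2 change was 0.24. TARS1 averaged 345 ± 10.7 CPM in CDDO_DOX and 297 ± 9.19 CPM in Control (SD, n = 3 each), a log2 change of 0.22. The 3 that fell were VARS1 and the phenylalanine subunits.

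VARS1, the valine enzyme, had 222, 228 and 222 CPM in CDDO_DOX, against 316, 274 and 279 CPM in Control, a log2 change of -0.37 (SE 0.049, edgeR adjusted p = 1.53e-09). Its Control libraries were the more spread, with replicate 1 the highest. FARSB, a subunit of the phenylalanine enzyme, had 89.0, 86.3 and 86.9 CPM in CDDO_DOX, against 115, 111 and 122 CPM in Control (log2 change -0.41, SE 0.054). FARSA, the catalytic subunit, had 80.4, 83.5 and 87.6 CPM in CDDO_DOX, against 102, 94.5 and 93.9 CPM in Control (log2 change -0.21, edgeR adjusted p = 8.75e-04). Both subunits fell with TMM, and the fall of FARSA was not called with total counts only (-0.08, edgeR adjusted p = 0.200). HARS1 (112 ± 6.31 CPM in CDDO_DOX and 108 ± 4.05 in Control) and YARS1 (234 ± 2.46 CPM in CDDO_DOX and 237 ± 3.91 in Control; SD, n = 3 each) were not called with TMM. With total counts only HARS1 was called higher (0.18, edgeR adjusted p = 0.00306), as was YARS1 (0.11, edgeR adjusted p = 0.0308).

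In the multisynthetase complex, 1 of 7 enzymes was higher and 4 were lower, the other 2 were not called, and the median log2 change was -0.15. Shares over all tested genes were 32.3% higher and 31.2% lower. QARS1, the glutamine enzyme, had 132, 136 and 136 CPM in CDDO_DOX, against 167, 159 and 154 CPM in Control (log2 change -0.25, SE 0.050, edgeR adjusted p = 1.39e-05). LARS1, the leucine enzyme and a known leucine sensor of the mTORC1 pathway, averaged 187 ± 2.56 CPM in CDDO_DOX and 213 ± 11.7 CPM in Control (SD, n = 3 each; log2 change -0.19). KARS1 (260.3 ± 9.46 CPM in CDDO_DOX and 292 ± 4.44 in Control, log2 change -0.16) and EPRS1 (324 ± 4.63 CPM in CDDO_DOX and 361 ± 15.9 in Control, log2 change -0.15) also fell. With total counts only the falls of LARS1, KARS1 and EPRS1 were not called (log2 changes -0.06, -0.04 and -0.03), while that of QARS1 was. IARS1, the isoleucine enzyme, had 375, 355 and 365 CPM in CDDO_DOX, against 339, 333 and 341 CPM in Control, a log2 change of 0.11 (edgeR adjusted p = 0.0274). That call was lost without CDDO_DOX replicate 1 (adjusted p = 0.112) or 3 (0.0799), or without Control replicate 1 (0.0516), 2 (0.119) or 3 (0.0602).

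MARS1, the methionine enzyme, was not called (log2 change 0.06, edgeR adjusted p = 0.245), nor was RARS1 (-0.09, edgeR adjusted p = 0.122). Upper-quartile factors gave MARS1 a call (0.12, edgeR adjusted p = 0.0288), as did total counts only (0.19, edgeR adjusted p = 3.00e-04). The 3′ end of MARS1 lies opposite DDIT3 (CHOP), which took up 5.05% of the exon bases of MARS1 and had a log2 change of 2.81. These libraries carry no strand information, so reads from the shared bases cannot be told apart. The complex's scaffold proteins went separate ways: AIMP1 rose (log2 change 0.28, SE 0.062), AIMP2 fell (-0.39, SE 0.078), and EEF1E1 was not called (-0.09, edgeR adjusted p = 0.391).

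The mitochondrial enzymes were mostly lower, by amounts between 8.22% (IARS2) and 50.5% (WARS2) among the 10 that were called. WARS2, the mitochondrial tryptophan enzyme (ENSG00000116874, chromosome 1, 119031216 to 119140671), had 11.9, 12.1 and 12.6 CPM in CDDO_DOX, against 25.8, 24.0 and 24.0 CPM in Control. Each CDDO_DOX library held about the same low level, and the groups lay far apart relative to their spread. The log2 change was -1.01 (SE 0.096, edgeR adjusted p = 1.71e-14), and 4.46% of tested genes had a lower one. An antisense gene, WARS2-AS1, takes up 4.68% of the exon bases of WARS2 and was not called (log2 change -0.10, edgeR adjusted p = 0.414). FARS2, the mitochondrial phenylalanine enzyme, had 13.3, 12.1 and 13.7 CPM in CDDO_DOX, against 22.3, 21.4 and 20.2 CPM in Control (log2 change -0.71, SE 0.098, edgeR adjusted p = 5.36e-09). RARS2, the arginine enzyme, had 43.9, 45.8 and 45.4 CPM in CDDO_DOX, against 64.2, 66.8 and 67.1 CPM in Control (log2 change -0.55, SE 0.062, edgeR adjusted p = 1.01e-11). For FARS2 and RARS2 too every CDDO_DOX library was below every Control library.

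EARS2, which charges glutamate onto the mitochondrial glutamate and glutamine tRNAs, had 40.3, 41.4 and 43.8 CPM in CDDO_DOX, against 59.8, 59.7 and 53.9 CPM in Control (log2 change -0.47, SE 0.066). LARS2, the leucine enzyme, averaged 27.9 ± 0.52 CPM in CDDO_DOX and 36.0 ± 0.59 CPM in Control (SD, n = 3 each; log2 change -0.37). TARS2 fell by 0.20 on the log2 scale, a call lost with total counts only (-0.08, edgeR adjusted p = 0.310). NARS2 (log2 change -0.27, edgeR adjusted p = 0.0253), CARS2 (-0.19, edgeR adjusted p = 0.0172) and IARS2 (-0.12, edgeR adjusted p = 0.0256) were called by a narrow margin. With total counts only the calls of NARS2 (-0.14), CARS2 (-0.06) and IARS2 (0.0037) were lost. The NARS2 call was also lost without CDDO_DOX replicate 3 (adjusted p = 0.131) or Control replicate 1 (0.0504). That of CARS2 was lost without CDDO_DOX replicate 1 (0.0529) or 3 (0.0696), and that of IARS2 without CDDO_DOX replicate 3 (0.126) or Control replicate 3 (0.0627).

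SARS2, the mitochondrial serine enzyme, was counted at a very low level, 36, 24 and 30 counts in CDDO_DOX libraries, against 37, 59 and 51 counts in Control libraries. Those are 1.73, 1.18 and 1.42 CPM in CDDO_DOX and 2.13, 3.57 and 2.76 CPM in Control, a log2 change of -0.96 (SE 0.27, edgeR adjusted p = 0.00149). Of its exon bases, 57.0% lie in exons of other genes. The larger part, 46.2%, is in ENSG00000269547 on the same strand, which had 0 counts, and 10.8% is in MRPS12 on the opposite strand. The sources used here do not give how reads in shared exons were counted. Its level and fold are therefore uncertain. Without SARS2 and VARS2, the members with over 20% of exon bases in other genes, 9 mitochondrial enzymes were lower and 1 higher.

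AARS2, the mitochondrial alanine enzyme, was the 1 mitochondrial member that rose. It had 43.2, 49.1 and 46.1 CPM in CDDO_DOX, against 32.4, 32.5 and 33.7 CPM in Control, a log2 change of 0.49 (SE 0.071, edgeR adjusted p = 1.52e-08). The alanine enzymes of both compartments thus rose. MARS2 (16.3 ± 0.14 CPM in CDDO_DOX and 14.9 ± 0.88 in Control; SD, n = 3 each) was called higher with total counts only (log2 change 0.25, edgeR adjusted p = 0.0275) and not with TMM (0.12, edgeR adjusted p = 0.287). PARS2, the proline enzyme, was not called (9.26 ± 0.85 CPM in CDDO_DOX and 8.72 ± 0.61 in Control). HARS2 shares 11.7% of its exon bases with HARS1. HARS2 (log2 change -0.13), YARS2 (-0.13) and VARS2 (-0.14) were not called. HARS2 was called lower without Control replicate 2 (-0.21, adjusted p = 0.0250), and VARS2 without CDDO_DOX replicate 3 (-0.19, adjusted p = 0.0362) or Control replicate 2 (-0.17, adjusted p = 0.0494).

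To set each cytosolic enzyme against its mitochondrial partner, counts per kilobase of exon were divided within each library, so that library scaling does not enter. The ratio was higher in CDDO_DOX for 14 of 17 pairs, and for 13 of these no CDDO_DOX library overlapped a Control library. Another pair, VARS1 to VARS2, was lower without overlap. Among all tested genes, 66.7% had CPM values that did not overlap between the groups, a share for single genes and not for ratios. EPRS1 and FARS2 stand in 2 pairs each. The two-sided exact permutation p of a pair that does not overlap is 0.10, the smallest that 3 against 3 libraries allow, and 0.121 after Benjamini-Hochberg adjustment over the 17 pairs, so no pair could pass 0.05.

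The tryptophan pair stood far from its Control ratio. WARS1 to WARS2 was 8.33, 8.18 and 7.60 in CDDO_DOX, against 3.22, 3.40 and 3.30 in Control, a 2.43-fold higher ratio to which the rise of WARS1 and the larger fall of WARS2 both added. CARS1 to CARS2 was 3.35, 2.79 and 3.13 in CDDO_DOX, against 1.86, 1.84 and 1.63 in Control (1.74-fold). Next came NARS1 to NARS2 (1.42-fold), FARSA to FARS2 (1.41-fold), RARS1 to RARS2 (1.38-fold) and TARS1 to TARS2 (1.34-fold). In the arginine and phenylalanine pairs the cytosolic enzyme did not rise, and the ratio went up with the fall of the mitochondrial one. SARS1 to SARS2 had the largest difference (3.50-fold), with the uncertainty of SARS2 given above and Control ratios spread from 55.4 to 97.7. The isoleucine and histidine pairs had the lowest ratios, with IARS1 to IARS2 at 1.41 ± 0.053 in CDDO_DOX and 1.19 ± 0.017 in Control (SD, n = 3 each).

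AARS1 to AARS2 was 1.21-fold higher although both genes rose. VARS1 to VARS2 was 7.35, 8.24 and 7.02 in CDDO_DOX, against 9.55, 8.54 and 8.30 in Control, a lower ratio (0.857-fold) with a small gap between the groups. EPRS1 to PARS2 (0.848-fold), MARS1 to MARS2 (0.959-fold) and YARS1 to YARS2 (1.08-fold) overlapped between the groups.

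**Figure D3:**
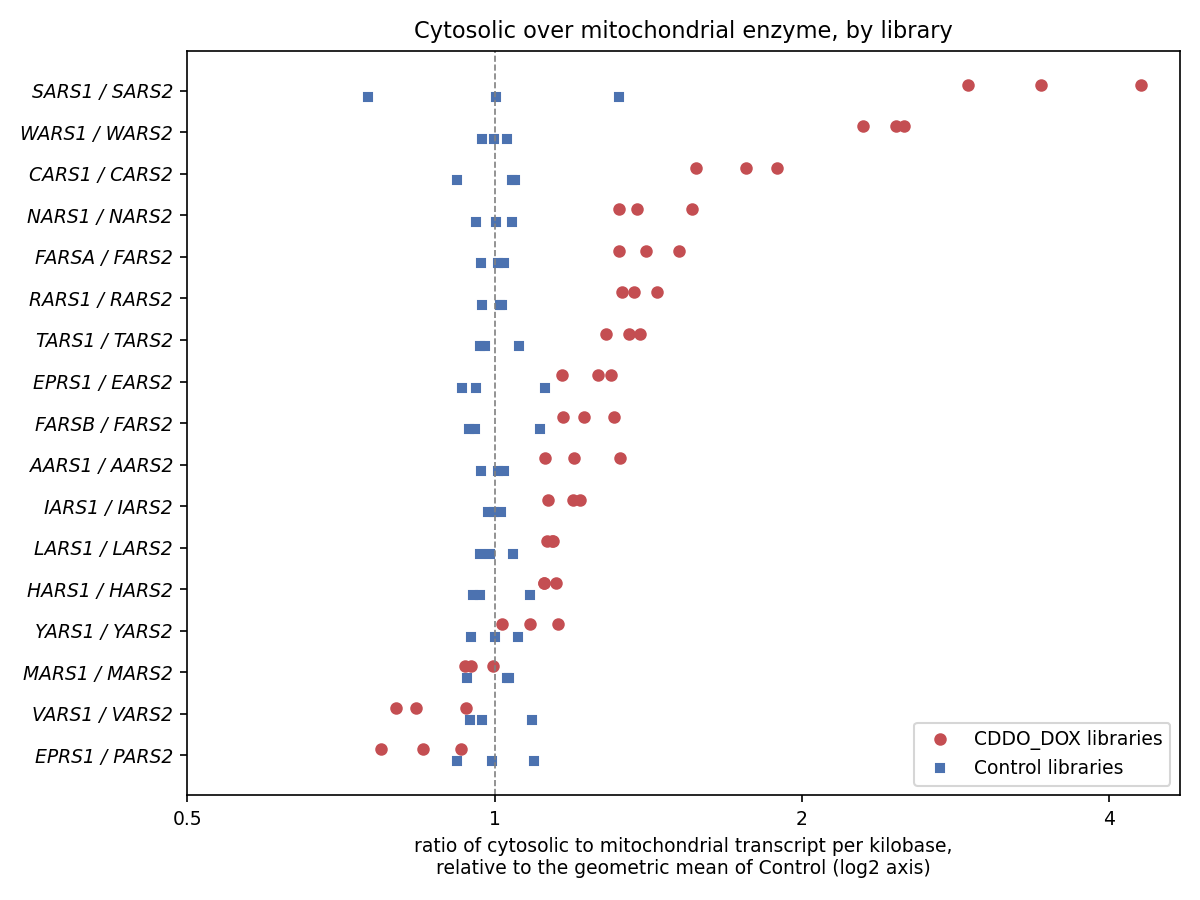
Ratio of the cytosolic to the mitochondrial transcript per kilobase in each library, divided by the geometric mean of the 3 Control libraries (log2 x axis), for 17 pairs sorted by size; circles are CDDO_DOX libraries and squares Control libraries. Circles lie to the right of all squares in 13 pairs, with SARS1 to SARS2 and WARS1 to WARS2 farthest, and to the left of them in the VARS1 to VARS2 pair.

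Levels can be compared between genes per kilobase of exon, with the reservation that the length covers every annotated exon and not the transcripts in use. On that scale the cytosolic member was above its mitochondrial partner in all 17 pairs and both groups. AARS1 was the highest member in both groups (171 CPM per kb in CDDO_DOX and 100.3 in Control). SARS1 (114 CPM per kb in CDDO_DOX and 62.8 in Control) stood in place 2 in CDDO_DOX and 6 in Control. IARS2 was the highest mitochondrial member (35.1 CPM per kb in CDDO_DOX and 38.2 in Control). The 19 cytosolic members summed to 1002 ± 12.6 CPM per kb in CDDO_DOX and 876 ± 13.2 in Control, and the 16 mitochondrial members to 139.9 ± 1.14 in CDDO_DOX and 164 ± 1.16 in Control (SD, n = 3 each). With TMM the cytosolic sum was thus 14.4% higher and the mitochondrial sum fell by 14.9%. GARS1 (88.7 CPM per kb in CDDO_DOX and 68.8 in Control) and KARS1 (64.0 and 71.7) count only in the cytosolic sum. Both also give a mitochondrial form, whose share is not known here, so the 2 sums do not fully separate the compartments. With total counts only, an alternative added after seeing the data, the cytosolic sum was 24.8% higher and the mitochondrial sum fell by 7.13%. Without AARS1 and SARS1, left out after their values were seen, the cytosolic sum was 717 ± 7.67 in CDDO_DOX and 713 ± 12.6 in Control, so with TMM these 2 genes held nearly all of its increase, while with total counts only the rest was 9.79% higher. Without WARS2 and RARS2, chosen in the same way, the mitochondrial sum fell by 9.82% with TMM and by 1.62% with total counts only.

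By catalytic class, the fold on which the active site is built, 3 of 10 cytosolic class I enzymes were higher and 4 lower (median log2 change -0.05), and 5 of 9 cytosolic class II enzymes were higher and 3 lower (0.22). Of the mitochondrial enzymes, 6 of 9 in class I were lower and 3 not called (median -0.19). In class II, 1 of 7 was higher and 4 lower (-0.20). Over all tested genes 32.3% were higher and 31.2% lower. EPRS1 holds a domain of each class and is counted with class I. SARS1, AARS1, GARS1, NARS1 and TARS1, of class II, and CARS1, WARS1 and IARS1, of class I, make up the cytosolic members that rose.

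Of 34 ATF4 targets in amino acid synthesis, transport and feedback, a list that holds no synthetase, 25 were higher and 5 lower, and the median log2 change was 0.59. DDIT3, the stress factor CHOP, averaged 67.9 ± 4.63 CPM in CDDO_DOX and 9.71 ± 0.80 CPM in Control (log2 change 2.81). SESN2, a leucine sensor, averaged 223 ± 5.51 CPM in CDDO_DOX and 33.1 ± 2.23 CPM in Control (2.75). CHAC1, which breaks down glutathione, averaged 63.4 ± 0.90 CPM in CDDO_DOX and 12.1 ± 0.99 CPM in Control (2.40), and ATF3, a transcription factor, 131 ± 12.6 CPM in CDDO_DOX and 25.5 ± 2.55 CPM in Control (2.36; SD, n = 3 each). These 4 were named for having the largest changes of the list, and all were above the 0.86 of SARS1. The list's median of 0.59 was below it. The serine synthesis genes PHGDH (0.51), PSAT1 (0.86) and PSPH (0.47), chosen after their values were seen because they make the amino acid that SARS1 uses, also rose. The 5 that fell, also named for their direction, were the proline synthesis genes ALDH18A1 (-0.59) and PYCR1 (-0.58), the amino acid transporter genes SLC7A1 (-0.43) and SLC38A2 (-0.27), and EIF4EBP1 (-0.22), a brake on translation. XPOT, which exports tRNA out of the nucleus, was not called (0.03, edgeR adjusted p = 0.627). ATF4 itself had 553 ± 22.5 CPM in CDDO_DOX and 492 ± 18.8 CPM in Control (log2 change 0.17, SE 0.046, edgeR adjusted p = 0.00120).

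Of 19 genes of the stress sensors and of eIF2 control, 6 were higher and 3 lower, and 10 were not called. The median was 0.09 on the log2 scale, and of all tested genes 32.3% were higher and 31.2% lower. PPP1R15A (GADD34), the phosphatase subunit that reverses eIF2 phosphorylation, rose by 1.59. DELE1 (-0.50), which relays mitochondrial stress, and EIF2B1 (-0.39) fell, and IMPACT, an inhibitor of GCN2, rose by 0.30. EIF2AK4, the GCN2 kinase itself, was not called (0.11, edgeR adjusted p = 0.0520). Of 19 interferon gamma targets, listed because WARS1 is known as one, 11 were tested. Of these 6 were higher and 2 lower: TAP1 (1.99) and APOL6 (1.72) rose, and GBP1 (-2.14) and GBP2 (-2.68) fell.

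Of 16 genes of mitochondrial tRNA charging, processing and modification, 3 were higher and 6 lower (median log2 change -0.11). Glutamine tRNA in mitochondria is made by EARS2 together with an amidotransferase, and of that enzyme's subunits QRSL1 (0.06) and GATB (-0.08) were not called while GATC rose by 0.17. MTFMT, which formylates the initiator methionyl-tRNA made by MARS2, fell by 0.25, the pseudouridine synthase gene PUS1 fell by 0.62, and MTO1, a tRNA-modifying factor, rose by 0.50. Of 18 tested mitochondrial translation and expression factors, 3 were higher and 9 lower (median -0.13), with POLRMT, the mitochondrial RNA polymerase, at -0.54 and the elongation factor TUFM at -0.18. The 78 mitochondrial ribosomal protein genes had 16 higher and 38 lower (median -0.15), beside 32.3% higher and 31.2% lower over all tested genes. In the cytosol, 16 of 79 tested ribosomal protein genes were higher and 28 lower, with a median of -0.03. The highest of these was RPS27L (2.02), a p53 target related to RPS27.

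**Figure D4:**
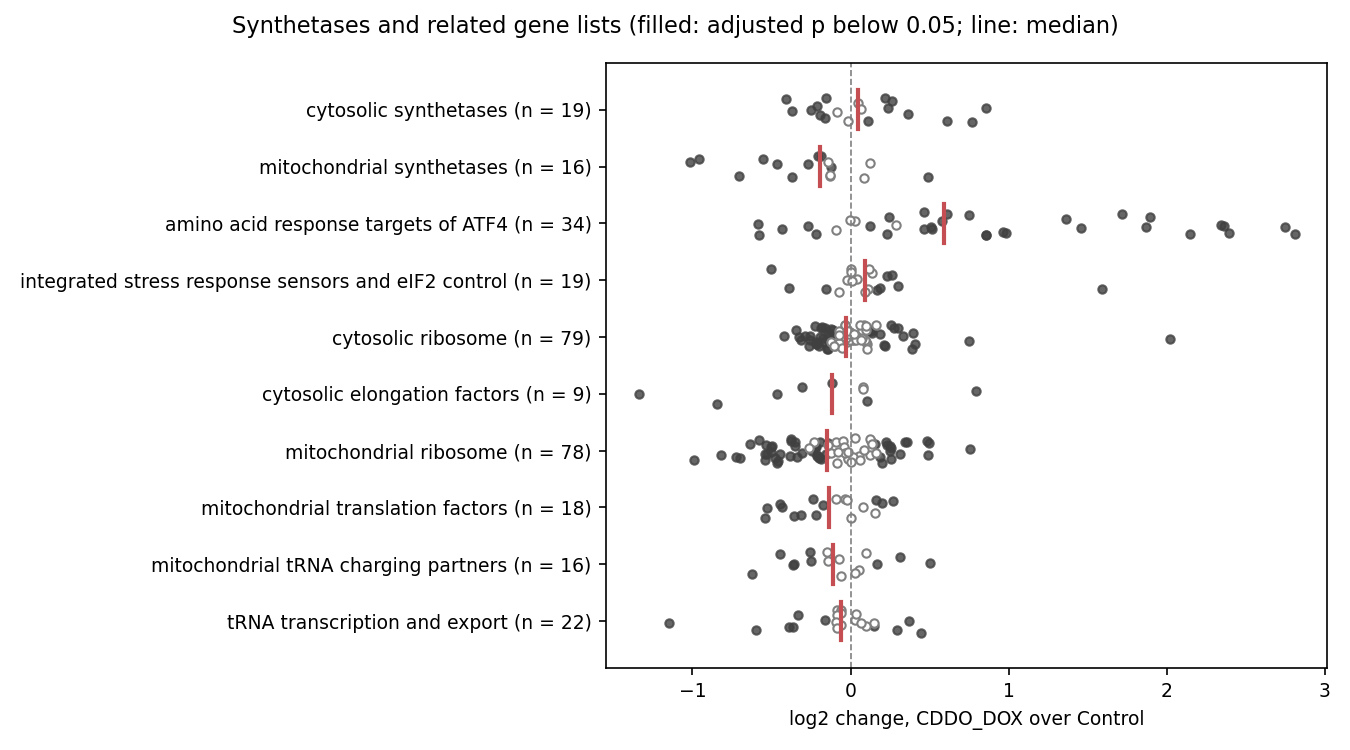
Log2 change (CDDO_DOX over Control, x axis) of each tested gene in the 2 compartments' synthetases and 8 related lists; filled points have an edgeR adjusted p below 0.05 and the line is the list's median. The median of the ATF4 targets is 0.59, that of the cytosolic synthetases 0.05 and that of the mitochondrial synthetases -0.20, beside -0.15 for the mitochondrial ribosome.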

How the data were processed

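Poly(A) RNA was sequenced from an Illumina TruSeq preparation that keeps no strand, per the labels' protocols. What the authors deposited is 1 table of raw counts per Ensembl gene, with exon coordinates and lengths, per the file headers. Named in the submitters' processing notes, without versions, are hg38 (GRCh38), featureCounts, Subread, SAMtools and STAR; the counting options are not stated in any source used. Of 58299 genes, 58179 were found in GENCODE 29, 57438 of them with the same start and end.

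Genes were filtered with filterByExpr (minimum count 10), TMM-normalised and tested with edgeR 4.0.16 (glmQLFit, glmQLFTest; R 4.3.3), with Benjamini-Hochberg adjustment over 15575 genes. The script was tested on simulated data. The SE of a log2 change is its absolute value over the root of F. Pair ratios and motif searches used Python 3.11.15, and exon overlaps bedtools. The alternatives were 3 other scalings, 2 other filters, DESeq2 1.42.0, limma-voom (limma 3.58.1), a replicate block, leaving out each library, and an adjusted p of 0.01.

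The members and lists were chosen with earlier results of these data known. Named beyond the 35 members were in each list the 4 called genes of largest change that had a mean of at least 1 CPM, and a fixed few (ATF4, EIF2AK4, XPOT, the AIMP genes, EEF1E1, QRSL1, GATB, GATC, MTFMT, TUFM), of which those most related to the synthetases are printed. Neighbours and overlapping genes were named for their position.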

Additional observations from a re-analysis of the deposited data

How the results depend on the processing

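Scaling mattered most. Total counts only put the median of all genes at 0.15 on the log2 scale. The cytosolic members then had 11 higher and 3 lower calls, the mitochondrial members 2 higher and 6 lower, and the genes of the related lists 132 higher and 60 lower, where TMM gave 85 and 107. Over all genes that scaling gave 6355 higher and 3602 lower calls, where TMM gave 5028 and 4865. The log2 changes of 3 members then had the other sign: YARS1 0.11 (TMM -0.02), IARS2 0.0037 (TMM -0.12) and RARS1 0.04 (TMM -0.09). With upper-quartile factors (median 0.08) the counts were 9 and 6 for cytosolic and 1 and 7 for mitochondrial members. Pair ratios do not depend on scaling. DESeq2, limma-voom, RLE size factors and the filter of at least 1 CPM in 3 libraries changed the call of 0 of the 35 members, and testing without a filter on low counts changed that of IARS1. Of the 35 members, 20 had the same call under every alternative run, among them SARS1, AARS1, CARS1, GARS1, WARS1, VARS1, FARSB, WARS2, FARS2, RARS2, EARS2, LARS2 and AARS2.

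Leaving out 1 library at a time gave 7 to 8 higher and 7 lower cytosolic calls, and 1 higher and 8 to 12 lower mitochondrial calls. For the pairs it gave 13 to 14 with a higher and 1 to 2 with a lower ratio without overlap. Groups that do not overlap stay apart when a library is removed, so these pair counts could not fall and are not a check. Deviations from the group means had correlations of -0.022 to -0.0071 between same-numbered replicates, beside -0.019 to 0.026 between the others. The labels do not say whether same-numbered replicates share a culture or a batch. The replicate block gave 4892 higher and 4761 lower calls over all genes and changed the call of no member. For the pairs, 13 were higher and 1 lower in all 3 within-number differences. Pairs without overlap must have 3 differences of 1 sign, so these counts could not be lower and are not a further check. Depth limits SARS2, PARS2 and NARS2 most, at 139 to 269 counts per library for PARS2 and NARS2 and 24 to 59 for SARS2. In CDDO_DOX libraries WARS2 (245 to 268 counts) and FARS2 (246 to 290 counts) were little deeper than NARS2. MARS2 (259 to 262 counts) was about as deep as NARS2 in Control libraries.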

Other observations

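In the rest of the tRNA pathway genes were called in both directions, as they were among all tested genes (32.3% higher and 31.2% lower). Of 22 genes of tRNA transcription and export, 4 were higher and 6 lower, 12 were not called, and the median was -0.06 on the log2 scale. In RNA polymerase III, which transcribes tRNA genes, the largest subunit gene POLR3A rose by 0.45 while the gene of the next largest subunit, POLR3B, fell by 1.15 (25.9 ± 1.52 CPM in CDDO_DOX and 57.4 ± 5.69 CPM in Control; SD, n = 3 each). POLR3G, the subunit isoform of dividing and stem cells, fell by 0.60. Of 9 genes of selenocysteine synthesis and of editing of mischarged tRNA, 3 were higher and 5 lower. AARSD1, which removes wrong amino acids from alanine tRNA, fell by 0.92, while AARS1 rose. The selenophosphate synthetase gene SEPHS2, whose product supplies selenium for the tRNA that SARS1 charges with serine, rose by 0.57, and its paralogue SEPHS1 fell by 0.85. Of 9 tested genes around cytosolic elongation, EIF5A2 (0.80) rose and its paralogue EIF5A (-0.84) fell, as did EEF1A2 (-1.34) and EEF2K (-0.47).

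Several members start head to head with another gene, within 1000 bases. FARS2 (log2 change -0.71) lies 105 bases from the start of LYRM4, an iron-sulfur cluster assembly gene that also fell (-0.82), and RARS2 (-0.55) lies 64 bases from ORC3 (-0.32). TARS1 (0.22) rose together with TARS1-DT (0.99, SE 0.35, edgeR adjusted p = 0.0109), and WARS1 (0.26) with WDR25 (0.32, SE 0.14, edgeR adjusted p = 0.0462). In other pairs the directions differed: EARS2 fell by 0.47 beside UBFD1 (0.29), CARS2 fell by 0.19 beside ING1 (0.40), and KARS1 fell by 0.16 beside TERF2IP (0.74). The neighbours of AARS1 (DDX19B, -0.15, edgeR adjusted p = 0.0792), GARS1 (GARS1-DT, 0.05), SARS2 (MRPS12, -0.04) and WARS2 (WARS2-AS1, -0.10) were not called. HARS1 and HARS2, which overlap at their 5′ ends, were not called. Other pairs named here also share exon bases. WDR25 takes up 4.51% of those of WARS1, and UBFD1 6.46% of those of EARS2. TERF2IP takes up 4.33% of those of KARS1, ING1 3.12% of CARS2 and GARS1-DT 2.38% of GARS1. Since these libraries carry no strand information, the counts of such a pair may not be independent.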
